A study of Mus musculus with 6 samples.

Results

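The genes described here are 10 regulators of the cell division cycle and of growth arrest: the D-type cyclin genes Ccnd1, Ccnd2 and Ccnd3, the E-type cyclin gene Ccne2, the cyclin dependent kinase (CDK) inhibitor genes Cdkn1a, Cdkn1b and Cdkn2c, and the growth arrest and DNA damage inducible genes Gadd45a, Gadd45b and Gadd45g. They were taken by symbol, and the set was chosen with earlier results of these data known. All 10 were found among the 23291 gene symbols of the deposited tables. RNA sequencing was carried out on whole liver of C57BL/6 mice kept for 3 months on a high fat (Western) diet, alone or with dabigatran etexilate at 10 mg per gram of diet. Dabigatran etexilate is an oral prodrug of a direct thrombin inhibitor. The diet that every animal received is thus shared by both groups, and neither age nor sex is given in the labels used here. There were 3 diet libraries, numbered 0, 1 and 2. Dabigatran replicates 0 and 1 were deposited with the same value in each of the 23291 genes and count here as a single library, dabigatran replicate 1, so that 2 dabigatran libraries remain. The labels do not tie each library to its own animal beyond speaking of mice, so p-values measure the spread between these libraries, which may be technical.

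Entry into the cell cycle depends on D-type cyclins, which bind CDK4 and CDK6 and start the phosphorylation of the retinoblastoma protein, and on E-type cyclins, which bind CDK2 and complete it. CDK inhibitors restrain these kinases: the protein p21 (from Cdkn1a) and p27 (from Cdkn1b) bind cyclin and CDK complexes, while p18 (from Cdkn2c) binds CDK4 and CDK6 directly. GADD45 proteins are small stress-induced proteins that act on the MAP3K4 and p38/JNK kinases and on DNA repair. Most hepatocytes of an adult liver are quiescent, and Ccnd1 and the Gadd45 genes are known for their early induction when liver cells are driven to divide or are stressed.

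Promoter sequences are shown for Cdkn1a and for the Gadd45 genes, which are stress-inducible. With dabigatran Gadd45g and, near the lower limit, Gadd45b were above the diet libraries. Cdkn1a was partly above them, while Gadd45a was not. Gadd45b was not tested, and none of the others reached an adjusted p under 0.05. A link between these sequences and the values was not tested. RefSeq promoters (GRCm38.p6) were matched for 7 of the 10 genes, in 10 windows. Each line gives the 250 bases before an annotated start, 5′ to 3′ on the gene's strand. Capitals mark matches to the 7 motifs searched, on both strands. They are the TATA box spelled TATAAA, the CAAT box spelled CCAAT, the GC box spelled GGGCGG and the E-box spelled CACGTG. To these come the AP-1 site spelled TGACTCA, the forkhead site spelled GTAAACA and the p53 decamer, which is the 10-base unit of the p53 response element.
Gadd45g, chr13:51846425-51846674, plus strand: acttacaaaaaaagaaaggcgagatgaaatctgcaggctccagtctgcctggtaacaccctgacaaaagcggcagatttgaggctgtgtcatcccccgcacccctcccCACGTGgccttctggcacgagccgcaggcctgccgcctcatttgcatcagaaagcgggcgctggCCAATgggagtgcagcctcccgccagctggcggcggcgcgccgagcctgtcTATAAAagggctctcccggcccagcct
Gadd45b, chr10:80929841-80930090, plus strand: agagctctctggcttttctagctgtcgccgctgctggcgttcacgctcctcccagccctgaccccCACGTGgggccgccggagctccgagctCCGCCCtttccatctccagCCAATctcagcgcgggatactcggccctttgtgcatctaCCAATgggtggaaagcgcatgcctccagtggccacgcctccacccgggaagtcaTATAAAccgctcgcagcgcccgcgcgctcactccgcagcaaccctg
Gadd45a, chr6:67037408-67037657, minus strand: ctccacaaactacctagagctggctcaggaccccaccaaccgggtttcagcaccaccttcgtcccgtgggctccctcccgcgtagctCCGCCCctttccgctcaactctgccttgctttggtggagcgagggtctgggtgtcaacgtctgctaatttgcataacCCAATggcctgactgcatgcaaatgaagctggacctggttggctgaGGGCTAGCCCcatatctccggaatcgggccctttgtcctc
Cdkn1a, upstream start, chr17:29090729-29090978, plus strand: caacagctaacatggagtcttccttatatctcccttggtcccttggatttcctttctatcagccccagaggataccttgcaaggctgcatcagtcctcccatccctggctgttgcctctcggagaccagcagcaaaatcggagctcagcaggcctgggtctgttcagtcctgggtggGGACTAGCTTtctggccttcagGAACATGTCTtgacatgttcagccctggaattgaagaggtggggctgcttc
Cdkn1a, downstream start, chr17:29093519-29093768, plus strand: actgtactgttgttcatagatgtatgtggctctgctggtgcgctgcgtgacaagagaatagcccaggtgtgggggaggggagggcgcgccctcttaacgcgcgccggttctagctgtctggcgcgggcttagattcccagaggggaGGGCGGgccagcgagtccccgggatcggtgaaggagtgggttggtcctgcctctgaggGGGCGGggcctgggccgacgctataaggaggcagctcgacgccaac

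The windows of Gadd45b and Gadd45g both held a TATA box (from -46 to -41 and from -27 to -22 relative to the start), an E-box and at least 1 CAAT box. The TATA box was found in 12.4% of 32851 windows of the same length, the E-box in 6.0% and the CAAT box in 33.8%. The window of Gadd45a held a CAAT box, a GC box (found in 32.7% of windows) and a p53 decamer at -40 to -31, and had neither TATA box nor E-box. These positions count from the RefSeq start. The GENCODE span of this minus strand gene reaches to 67037457, so by that span the decamer lies inside the gene. The upstream start of Cdkn1a had 2 p53 decamers, a match found in 7.1% of windows, and its downstream start had 2 GC boxes. The AP-1 site (4.5% of windows) and the forkhead site (3.2%) were in none of the 5 windows shown. These matches are descriptions of the sequence only.

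Depth was modest for these genes. One fragment is worth a fixed step of FPKM (fragments per kilobase of gene, scaled to a library's mapped fragments) in each gene and library, and whole fragments could be read from these steps for 9 of the 10 genes and for 72.0% of the 10247 tested genes. A tested gene with whole fragments had a median of 27 to 36 per library. These are the smallest numbers that fit the steps (the true ones may be a whole multiple), and their Poisson intervals cover counting error only. Depth relative to diet replicate 0 was 0.761 to 0.967 in the others. In the diet group the level per length ran from Gadd45g at 15.9 ± 8.88 FPKM (SD, n = 3) through Ccnd3 (9.78 ± 0.760), Cdkn1a (7.21 ± 3.70), Ccnd1 (7.20 ± 2.33), Cdkn1b (4.86 ± 1.10), Gadd45a (3.73 ± 2.36), Cdkn2c (2.95 ± 0.666), Ccnd2 (1.63 ± 0.456) and Gadd45b (0.273 ± 0.472) to Ccne2 (0.110 ± 0.0973). Neighbours in this order overlapped over the 3 diet libraries, except Ccnd1 above Cdkn1b, Cdkn2c above Ccnd2 and Ccnd2 above Gadd45b.

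**Figure D1:**
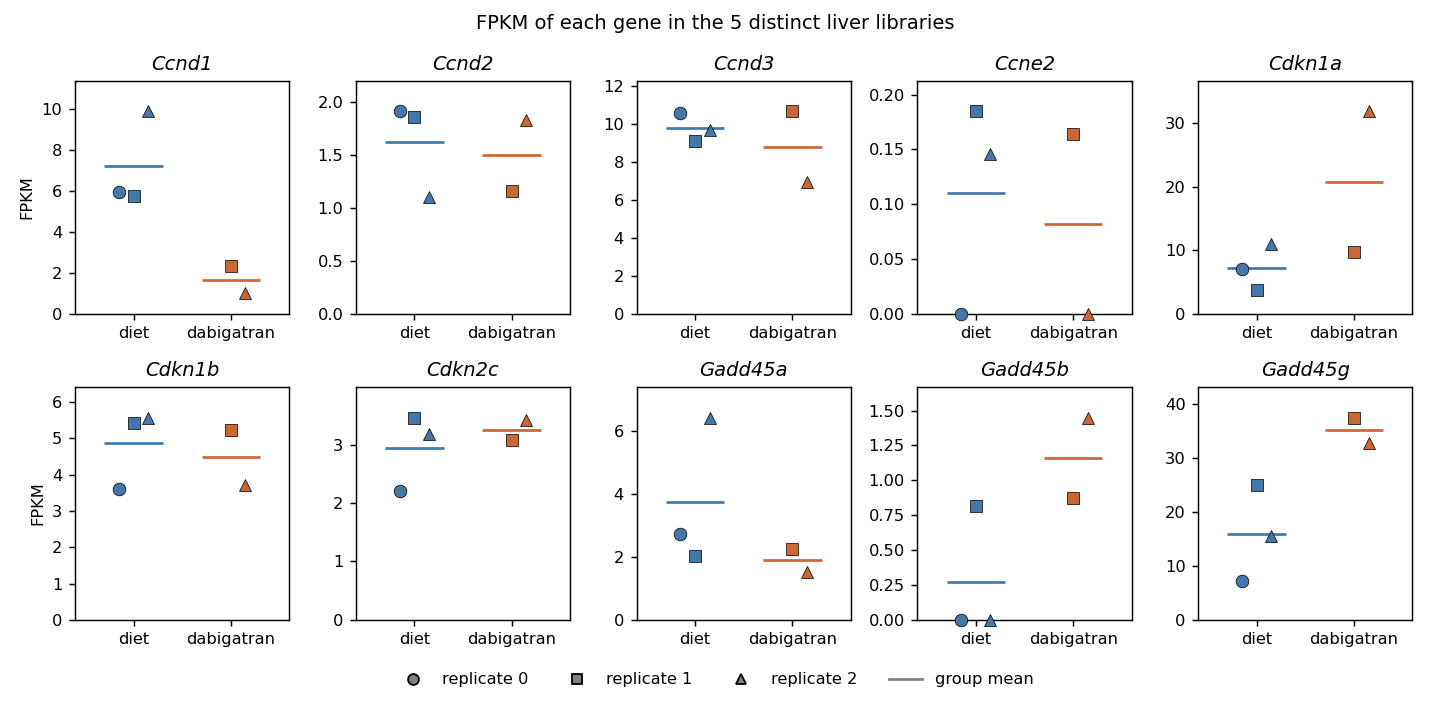
Level of each of the 10 genes in the 5 distinct libraries (vertical axis, FPKM, starting at 0 and scaled per gene), with diet libraries in blue, dabigatran libraries in orange, the replicate number as the symbol and the group mean as a line. Ccnd1 lies between 5.78 and 9.89 FPKM on the diet alone and at 2.31 and 0.996 FPKM with dabigatran, whereas Ccnd3, Cdkn1b and Cdkn2c overlap between the groups.

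The question of the design is which liver genes differ when thrombin is inhibited on this diet. None of the 8 genes that passed the filter on low values (at least 1 FPKM in at least 3 libraries) was called at an adjusted p under 0.05 over all 10247 tested genes (limma on log2(FPKM + 0.5), two-sided, Benjamini-Hochberg adjustment). Of all tested genes 0.429% were called (44 genes), 0.127% higher and 0.303% lower. At an unadjusted p under 0.05 there were 3 of 8 (Ccnd1 lower, Cdkn1a and Gadd45g higher), beside 16.0% of all tested genes (6.87% higher and 9.13% lower). A voom fit on whole fragments also called 0 of the 8. The libraries of the groups did not overlap in 2 of the 8 genes, Ccnd1 and Gadd45g, beside 34.4% of all tested genes (17.2% in each direction), so that the share among the 8 is below the background. The median log2 difference of the 8 genes was -0.09, beside 0.02 over all tested genes, with 3 genes higher and 5 lower.

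**Figure D2:**
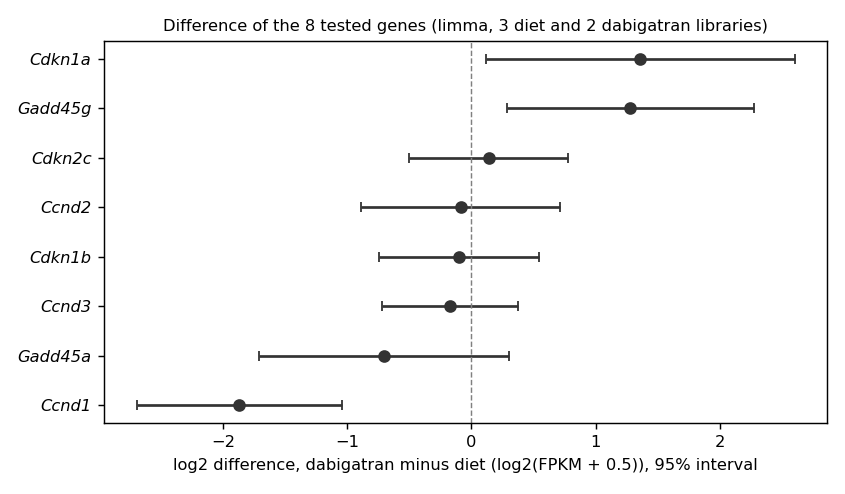
Log2 difference, dabigatran minus diet, of the 8 tested genes on the log2(FPKM + 0.5) scale (horizontal axis), with points for the fitted difference and bars for its 95% interval, not adjusted for the number of genes. The intervals of Ccnd1 (-2.69 to -1.04), Cdkn1a (0.11 to 2.60) and Gadd45g (0.28 to 2.27) lie on 1 side of 0, and those of the other genes include it.

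Ccnd1 encodes cyclin D1, the D-type cyclin most closely tied to growth signals in hepatocytes (chromosome 7, 144929931 to 144939925, minus strand, GRCm38). It had 5.94, 5.78 and 9.89 FPKM in diet replicates 0, 1 and 2, on 54, 40 and 87 fragments, and 2.31 and 0.996 FPKM in dabigatran replicates 1 and 2, on 18 and 7 fragments. Both dabigatran libraries lay below every diet library, and dabigatran replicate 2 was the lowest. The 95% counting interval was 1.37 to 3.65 FPKM in dabigatran replicate 1, and 4.13 to 7.87 in diet replicate 1, the lowest of its group. The group means were 7.20 ± 2.33 FPKM (SD, n = 3) and 1.65 ± 0.927 (SD, n = 2), a log2 difference of -1.87 ± 0.36 (SE), or 3.65-fold lower. The limma adjusted p was 0.0714, above the threshold. Its p ranked 113 among the 10247 tested genes, and 1.07% of these genes had a difference as large in either direction. Leaving out dabigatran replicate 1, so that a single dabigatran library remained and was assumed to vary like the diet libraries, moved Ccnd1 past the threshold (log2 difference -2.32, limma adjusted p = 0.0308). Over all other alternatives the limma adjusted p ran from 0.0505 to 0.306 and the gene was lower in each.

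Of the 50-base windows of Ccnd1 transcripts, 21.6% also occur in LTO1 (listed as Oraov1), whose exons overlap it on the opposite strand, so without strand some of their reads may not be separable. Oraov1 had 7.21, 4.14 and 5.36 FPKM on the diet alone and 2.63 and 8.46 with dabigatran. It was thus highest in dabigatran replicate 2, where Ccnd1 was lowest, and lowest in dabigatran replicate 1, where Ccnd1 also lay below every diet library. The part of shared reads in the Ccnd1 values was not tested. Of the windows of Cdkn1a, Ccnd2 and Ccnd3, 8.5%, 6.3% and 5.4% also occur in other genes.

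The other D-type cyclins overlapped between the groups. Ccnd3 (chromosome 17, 47505051 to 47599691), the D-type cyclin gene with the highest mean in both groups, had 10.6, 9.07 and 9.68 FPKM on the diet alone and 10.7 and 6.92 with dabigatran. Dabigatran replicate 1 was the highest of the 5 libraries and replicate 2 the lowest, (log2 difference -0.17 ± 0.24 SE, limma adjusted p = 0.761). The 95% interval of the dabigatran to diet ratio was 0.608 to 1.29. Ccnd2 (chromosome 6, 127125162 to 127152193) had 1.91, 1.86 and 1.10 FPKM on the diet alone and 1.16 and 1.84 with dabigatran, with both groups spanning about the same range. Its ratio had a 95% interval of 0.540 to 1.64 (limma adjusted p = 0.930), and 14 to 27 fragments stood behind each value.

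Within a library the D-type cyclin genes can be compared without regard to its scaling. Ccnd1 made up 32.2%, 34.6% and 47.9% of the summed FPKM of the 3 genes in diet replicates 0, 1 and 2, and 16.3% and 10.2% in dabigatran replicates 1 and 2. Ccnd3 made up 46.8% to 57.4% in the diet libraries and 75.5% and 71.0% with dabigatran. The sum of the 3 genes was 18.4, 16.7 and 20.7 FPKM on the diet alone and 14.1 and 9.75 with dabigatran. The log2 ratio of Ccnd3 to Ccnd1 was higher in 2 of 2 dabigatran libraries, by 2.02. However, the exact permutation test over libraries gave p = 0.2 (two-sided, by doubling the smaller tail). This is the smallest value that such doubling allows with 10 splits. This ratio was chosen after the values were seen.

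**Figure D3:**
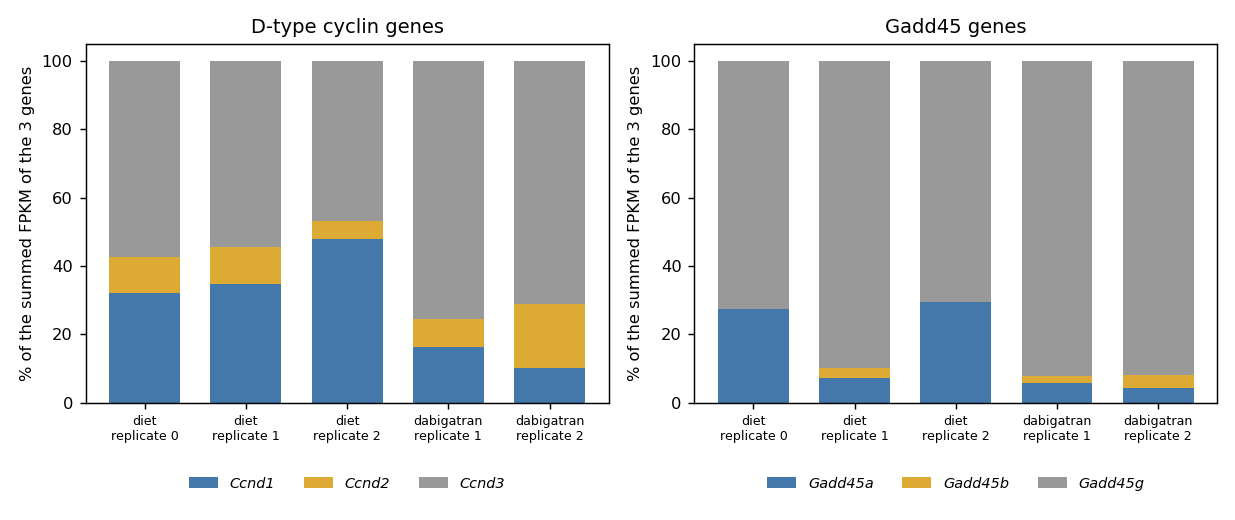
Share of each D-type cyclin gene (left) and each Gadd45 gene (right) in the summed FPKM of the 3 genes of its family (vertical axis, %), with 1 bar per library. Ccnd1 holds 32.2% to 47.9% in the diet libraries and 16.3% and 10.2% with dabigatran, while Gadd45a holds 7.3% in diet replicate 1, near the dabigatran libraries (5.6% and 4.2%), and 27.3% and 29.4% in diet replicates 0 and 2.

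Ccne2, which encodes cyclin E2, a partner of CDK2 at the start of DNA synthesis (chromosome 4, 11191351 to 11204779), was barely seen. It was listed at 0 in diet replicate 0 and dabigatran replicate 2 and had 0.185, 0.145 and 0.164 FPKM in diet replicates 1 and 2 and dabigatran replicate 1, each of which is 1 fragment. Of its windows, 14.4% also occur in other genes, most of all in Ints8, whose exons overlap it on the opposite strand. Ints8 had 3.16 to 7.57 FPKM in the 5 libraries. Whether the fragments of Ccne2 came from Ints8 was not tested. No difference was detectable at this depth and Ccne2 was not tested.

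Among the CDK inhibitors, Cdkn1a (p21, a p53 target; chromosome 17, 29090976 to 29100727) had the widest range. It had 6.96, 3.66 and 11.03 FPKM in diet replicates 0, 1 and 2, on 15, 6 and 23 fragments, and 9.74 and 31.8 FPKM in dabigatran replicates 1 and 2, on 18 and 53. Dabigatran replicate 1 lay within the diet range and dabigatran replicate 2 far above it, with a counting interval of 23.8 to 41.6 FPKM. The means were 7.21 ± 3.70 (SD, n = 3) and 20.8 ± 15.6 FPKM (SD, n = 2), a log2 difference of 1.36 ± 0.54 (SE, limma adjusted p = 0.275). Without dabigatran replicate 2 the difference was 0.53 (limma adjusted p = 0.805), and without dabigatran replicate 1 it was 2.19 (0.0762). Over all alternatives the limma adjusted p ran from 0.0762 to 0.805.

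Cdkn1b and Cdkn2c overlapped between the groups. Cdkn1b (p27; chromosome 6, 134920401 to 134925513) had 3.59, 5.43 and 5.57 FPKM on the diet alone and 5.24 and 3.72 with dabigatran, with diet replicate 0 lowest. The 95% interval of its dabigatran to diet ratio was 0.597 to 1.46 (limma adjusted p = 0.891). Cdkn2c (p18; chromosome 4, 109660876 to 109667189) had 2.20, 3.47 and 3.19 FPKM on the diet alone and 3.08 and 3.42 with dabigatran. All 5 values rest on 5 to 7 fragments, and the interval of the ratio was 0.707 to 1.71 (limma adjusted p = 0.847).

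The spread between libraries of a group can be set against counting error alone, for which the ratio of observed to expected variance is about 1. Pooled over both groups this ratio was 9.32 for Cdkn1a, 6.83 for Gadd45g and 5.46 for Ccnd1, above counting alone. By group it was 9.96 in the diet and 0.554 in the dabigatran libraries for Gadd45g, 3.40 and 21.2 for Cdkn1a, and 6.30 and 3.77 for Ccnd1. The pooled ratio was 2.38 for Gadd45a, 2.22 for Ccnd3, 1.74 for Ccnd2, 1.29 for Cdkn1b, 0.701 for Ccne2 and 0.224 for Cdkn2c. Each pooled ratio has only 3 degrees of freedom.

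Of the Gadd45 genes, Gadd45g (chromosome 13, 51846678 to 51848468) was the most abundant in every library. It had 7.25, 24.999 and 15.5 FPKM in diet replicates 0, 1 and 2, on 16, 42 and 33 fragments, and 37.5 and 32.9 FPKM in dabigatran replicates 1 and 2, on 71 and 56. Both dabigatran libraries lay above every diet library, although the counting intervals of diet replicate 1 (18.0 to 33.8) and dabigatran replicate 2 (24.8 to 42.7) overlapped. The means were 15.9 ± 8.88 (SD, n = 3) and 35.2 ± 3.30 FPKM (SD, n = 2), a log2 difference of 1.28 ± 0.43 (SE), or 2.43-fold higher, with a limma adjusted p of 0.214. The difference was 0.82 without diet replicate 0 and 1.68 without diet replicate 1 (limma adjusted p = 0.401 and 0.0504), and over all alternatives the adjusted p ran from 0.0504 to 0.495.

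Gadd45b (chromosome 10, 80930073 to 80932204), a gene known for rapid induction in liver, was near the lower limit. It was listed at 0 in diet replicates 0 and 2, with 0.818 FPKM in diet replicate 1, and had 0.871 and 1.45 FPKM with dabigatran. The dabigatran values lay above the diet values by little in the case of diet replicate 1. An exact 0 in these tables can be a failed estimate, its values were not whole multiples of a step, and it did not pass the filter, so no test or fold is given.

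Gadd45a (chromosome 6, 67035096 to 67037457), a p53 target like Cdkn1a, had 2.72, 2.04 and 6.43 FPKM in the diet libraries, on 7, 4 and 16 fragments, and 2.27 and 1.51 with dabigatran, on 5 and 3. Diet replicate 2 stood above the other 4 libraries, and the groups overlapped (log2 difference -0.70 ± 0.44 SE, limma adjusted p = 0.469, interval of the ratio 0.305 to 1.24). Of its windows, 15.6% are shared with E230016M11Rik on the opposite strand. Gadd45g made up 72.7%, 89.7% and 70.6% of the summed Gadd45 FPKM on the diet alone and 92.3% and 91.7% with dabigatran, and the sum was 9.97, 27.9 and 21.9 FPKM against 40.7 and 35.8.

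Beyond these genes, 6 lists of related genes were examined. None of their 66 tested members passed over all genes in limma, beside 0.429% of all tested genes, and 9 of 66 had an unadjusted p under 0.05, beside 16.0% of all tested genes. The voom fit called 0 of the 52 that had whole fragments. Of the other cyclins, CDKs and the retinoblastoma and E2F genes, 13 of 26 were tested, with a median log2 difference of 0.20. Ccnf, which encodes cyclin F, the substrate-binding part of a ubiquitin ligase, had 1.23, 3.23 and 1.83 FPKM on the diet alone and 5.09 and 8.83 with dabigatran (log2 difference 1.55 ± 0.39 SE, limma adjusted p = 0.118). Without diet replicate 1 it was called (1.85, limma adjusted p = 0.0416), but not without diet replicate 0 or 2 (limma adjusted p = 0.337 and 0.342). The repressor-type E2F gene E2f4 had 5.78 ± 2.28 FPKM (SD, n = 3) and 9.43 ± 2.04 (SD, n = 2), and Rbl2, a retinoblastoma relative that works with it in quiescent cells, 8.94 ± 1.87 and 11.3 ± 1.49 (limma adjusted p = 0.362 and 0.528). Cdk4, the partner of the D-type cyclins, had 13.2 ± 2.69 and 15.2 ± 3.23 FPKM (limma adjusted p = 0.721), while Ccne1, the paralog of Ccne2, had at most 0.467 FPKM in any library and was not tested. Of the 5 remaining CDK inhibitor genes only Cdkn2d was tested (1.22 ± 0.990 and 2.05 ± 0.172 FPKM, limma adjusted p = 0.506).

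The 28 listed genes of DNA synthesis and mitosis summed to 53.9 to 59.6 FPKM in the diet libraries and to 39.8 and 43.5 FPKM with dabigatran. Of these 28 genes 11 were tested, of which 10 had lower means on the log2 scale with dabigatran and 1 higher, with a median of -0.32 beside 0.02 for all tested genes, of which 4932 of 10247 were lower. None was called, and 1 of the 11 was lower at an unadjusted p under 0.05, beside 9.13% of all tested genes. The helicase subunit gene Mcm3 and the licensing inhibitor gene Gmnn had differences of -0.63 and -0.58 (limma adjusted p = 0.406 and 0.555). Mki67, the gene of the proliferation marker Ki-67, had 1.16, 0.420 and 0.951 FPKM on the diet alone and 0.233 and 0.103 with dabigatran. Both values of Mki67 with dabigatran lay below those of the diet group, as they did in 17.2% of all tested genes. The gene was near the lower limit and did not pass the filter.

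Cdkn1a and Gadd45a are both p53 targets, and other genes of that pathway had differences in both directions. Of 22 listed symbols, 21 were in the tables and 17 were tested, with 9 higher, 8 lower and a median of 0.03. Tigar was there under an older symbol and was left out of these counts. The death receptor gene Fas had 17.3 ± 1.69 FPKM (SD, n = 3) and 9.004 ± 2.55 (SD, n = 2), and the cyclin G1 gene Ccng1 15.9 ± 1.85 and 8.95 ± 0.555 (limma adjusted p = 0.115 and 0.119). Sesn1, which encodes the stress protein sestrin 1, had 4.42 ± 0.282 and 8.19 ± 3.16 FPKM (limma adjusted p = 0.230). Trp53 itself had 5.56 ± 0.604 and 5.46 ± 1.06 FPKM and Mdm2, the ubiquitin ligase that p53 induces, 10.7 ± 2.33 and 9.69 ± 1.93 (limma adjusted p = 0.962 and 0.826). The groups overlapped for both Trp53 and Mdm2.

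**Figure D4:**
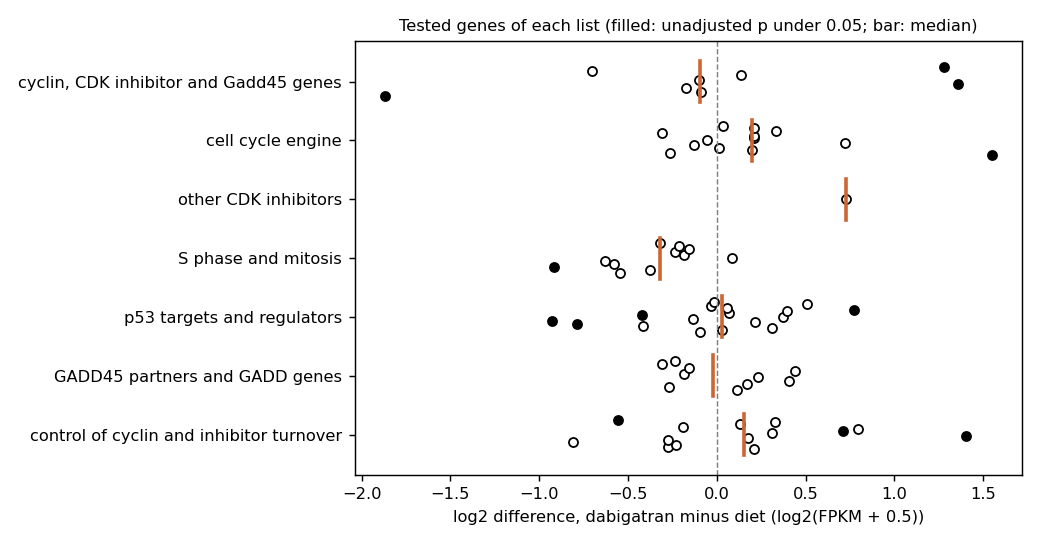
Log2 difference, dabigatran minus diet, of every gene tested under its listed symbol, for the 10 genes and the 6 related lists. The horizontal axis is on the log2(FPKM + 0.5) scale, with 1 point per gene, filled at an unadjusted p under 0.05, and an orange bar at the list's median. Genes of DNA synthesis and mitosis have a median of -0.32, with 10 of 11 below 0, and p53 targets a median of 0.03 with points on both sides.

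Of the kinases through which GADD45 proteins act and the other GADD genes, 10 of 12 were tested, with a median of -0.02 and no unadjusted p under 0.05. The p38 alpha gene Mapk14 had 23.5 ± 2.16 FPKM (SD, n = 3) and 32.4 ± 7.38 (SD, n = 2), the JNK2 gene Mapk9 14.0 ± 0.394 and 11.2 ± 0.629, and the p38 kinase gene Map2k3 20.2 ± 1.49 and 16.7 ± 0.708 (limma adjusted p = 0.343, 0.448 and 0.505). Of the symbols listed for the turnover of cyclins and inhibitors and for the FOXO factors, 14 of 16 were tested, with a median of 0.16. Skp1 and Skp1a on this list name the same gene, found as Skp1a. Fbxo31, which encodes an F-box protein that marks cyclin D1 for degradation, had 3.99, 4.62 and 4.43 FPKM on the diet alone and 7.32 and 20.4 with dabigatran (log2 difference 1.40 ± 0.38 SE, limma adjusted p = 0.145). Without dabigatran replicate 1 the difference was 2.11, a value that rests on dabigatran replicate 2 alone. Skp1a, a core part of the same class of ligases, had 164 ± 10.0 and 111 ± 7.67 FPKM (limma adjusted p = 0.165). Foxo1, whose protein drives Cdkn1b and Gadd45 genes when insulin signalling is low, had 4.67 ± 0.364 and 8.27 ± 3.30 FPKM (limma adjusted p = 0.266).

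The tested genes whose values over the 5 libraries lay nearest to those of Cdkn1a, by the Euclidean distance of log2 values centred per gene, were Rasl11b (0.267), Arl2bp (0.494) and Nmral1 (0.546). Rasl11b had 1.01, 0.332 and 1.57 FPKM on the diet alone and 1.77 and 5.24 with dabigatran. Nearest to Ccnd1 were Gm19619 (0.281), 1110008J03Rik (0.440) and 3010026O09Rik (0.455). Gm19619 had 2.83, 2.54 and 4.31 FPKM on the diet alone and 1.04 and 0.386 with dabigatran. With 5 libraries and 10247 genes such likeness is a description only.

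The libraries were of liver by their markers: Alb had 18532 to 27246 FPKM in all 5. In whole tissue, fewer cells of a type and less RNA per cell cannot be told apart. The summed FPKM of 8 hepatocyte markers was 28094 to 30776 in the diet libraries and 30635 and 42744 in dabigatran replicates 1 and 2, higher in the library where Cdkn1a was highest and Ccnd1 lowest. Of these 8 markers 6 had a higher and 2 a lower mean on the log2 scale with dabigatran. At an unadjusted p under 0.05 there were 4, all higher, beside 6.87% of all tested genes, and none was called. Ttr lay below every diet library (log2 difference -0.54, limma adjusted p = 0.327), and Alb, Apob and Asgr1 overlapped between the groups. Alb made up most of each sum. The sums of 7 endothelial markers were 92.9 to 97.6 and 91.9 to 94.5 FPKM, with Clec4g the largest of the 7 in every library. Single markers lay on both sides. Without overlap, 5 of 7 lay above the diet libraries and 1, Clec4g, below, beside 17.2% of all tested genes in each direction. Cdh5 lay above by little, with 7.31 and 7.30 FPKM against at most 7.27. At an unadjusted p under 0.05, 1 was higher (Lyve1) and 1 lower (Clec4g), beside 6.87% and 9.13% of all tested genes. The sums of 9 macrophage markers (248 to 329 and 209 to 354) and of 10 lymphocyte markers (3.72 to 5.77 and 1.09 to 5.08) were lowest in dabigatran replicate 2. Of the 6 adipocyte markers only Cfd and Car3 were tested. They were called lower (limma adjusted p = 0.0110 and 0.0404), beside 0.303% of all tested genes. Cfd fell from 28.3 to 150 FPKM on the diet alone to an exact 0 with dabigatran, which can be a failed estimate. The voom fit did not call Cfd (adjusted p = 0.159). Car3 had 526 to 1693 FPKM on the diet alone and 130 and 92.9 with dabigatran. Lep and Plin1 were listed at 0 in all libraries, and Adipoq and Retn were above 0 only in diet replicate 0, at 0.320 and 0.677 FPKM. The cell type behind the Car3 values was not tested. The sums of neutrophil markers (2.68 to 19.8 and 2.90 to 43.9), stellate cell markers (102 to 152 and 100.2 to 105) and bile duct markers (32.8 to 51.9 and 11.1 to 38.9) overlapped between the groups. Dcn made up most of each stellate sum. The part of these markers in the values of the cell cycle genes was not tested.

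**Figure D5:**
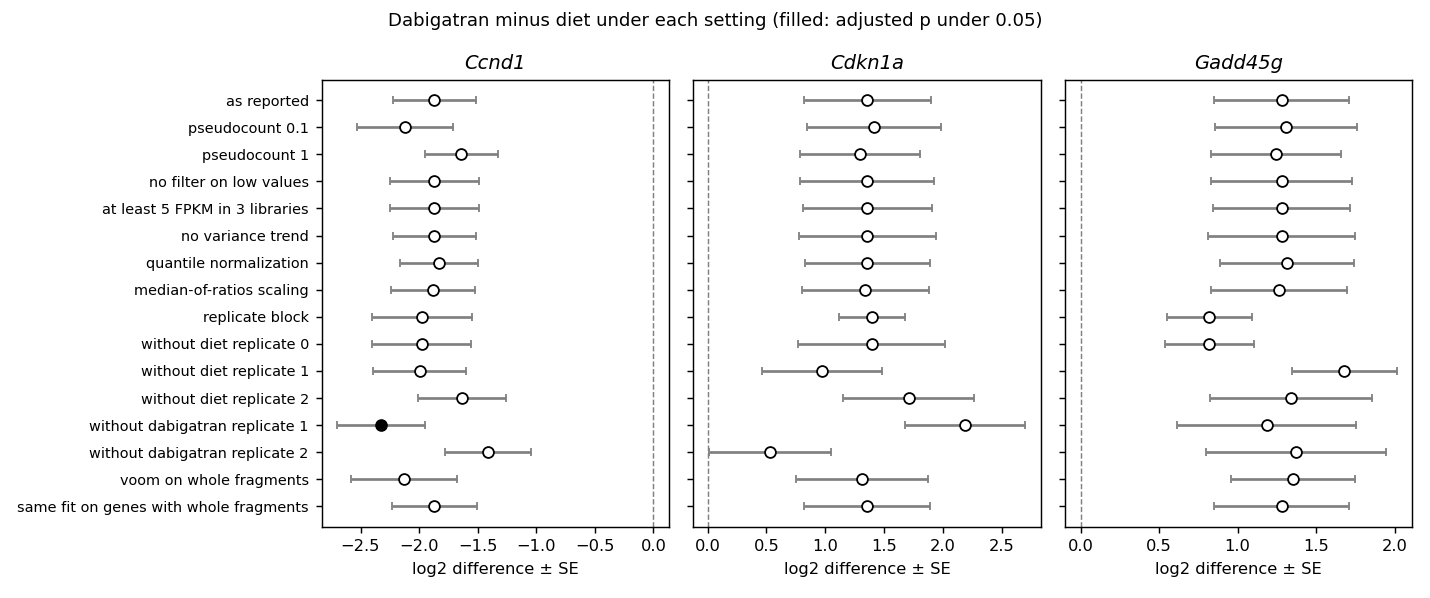
Log2 difference, dabigatran minus diet, of Ccnd1, Cdkn1a and Gadd45g (horizontal axes, bars are SE) as reported and under 15 alternatives (vertical axis), with filled points at an adjusted p under 0.05. The sign is the same in every row of the 3 genes, and the only filled point is Ccnd1 without dabigatran replicate 1, at -2.32.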

How the data were processed

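The authors deposited 1 table per sample with an FPKM value for each of 23291 gene symbols, the unit given per the file headers. The submitters' processing notes name Cuffdiff, TopHat2 2.0.4, TopHat, R 2.15.1 and CASAVA without saying what each did, and the builds mm10 and GRCm38. Annotation, strand setting and scaling: not given in the sources used here.

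From these values log2(FPKM + 0.5) was fitted with limma 3.58.1 in R 4.3.3 (lmFit, eBayes with a variance trend, group as the sole term), for the 10247 genes that reached 1 FPKM in 3 or more of the 5 distinct libraries, with Benjamini-Hochberg adjustment over all tested genes. The same steps were checked on simulated data. The design had foreseen 6 libraries, of which 5 were distinct.

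Fragments were read as the smallest whole numbers, within a relative tolerance of 1e-04, in the ratio of depth-corrected values. Of 1000 genes with randomly shifted values, 0.0% came out whole. Positions are from GENCODE M21 (GRCm38).

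The genes, lists and tests were chosen with earlier results of these data known. Named are all 10 genes, up to 3 genes per list in order of unadjusted p, the 3 nearest genes of Cdkn1a and Ccnd1, and Mki67, Trp53, Mdm2, Ccne1 and Cdk4. One gene that this rule names is not reported here. Other names (overlapping genes, markers) serve a stated check. Alternatives covered pseudocounts, filters, variance trend, scaling, the replicate block and leaving out each library. A voom fit on fragments was added after seeing the data.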

Additional observations from a re-analysis of the deposited data

How the results depend on the processing

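Calls over all genes depended on the settings. Against 44 genes (13 higher, 31 lower), limma called 23 with a pseudocount of 0.1, 0 without a filter on low values (1933 at an unadjusted p under 0.05), 0 without a variance trend (1562), 27 after quantile normalization (11 higher, 16 lower) and 19 by voom (12 higher, 7 lower). The voom fit covered 7375 genes that had whole fragments, among which the limma fit as reported called 31 (12 higher, 19 lower). Leaving out 1 library gave 0 to 294: 1 without diet replicate 0, 294 without diet replicate 1, 0 without diet replicate 2, 275 without dabigatran replicate 1 and 0 without dabigatran replicate 2. The cause was not tested. Calls among the 10 genes ranged from 0 to 1 on leaving out a library, with 1 (Ccnd1) without dabigatran replicate 1, and were 0 under every other alternative. Calls in the 6 lists also ranged from 0 to 1 (Ccnf without diet replicate 1, Fbxo31 without dabigatran replicate 1).

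The correlation of deviations across genes between same-numbered libraries was -0.045 and -0.025. With 2 dabigatran libraries the deviations from their mean mirror each other, so these values cannot settle whether the numbers pair animals. The numbers were not taken to pair animals. With a replicate block limma called 13 genes. That fit leaves the unpaired diet replicate 0 out of the comparison.

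Differences that changed sign were small and not called in either direction. Ccnd2 had 0.017 with the block and without diet replicate 0, 0.0017 without diet replicate 1 and 0.16 without dabigatran replicate 1. Without dabigatran replicate 2, Ccnd3 and Cdkn1b both had 0.12. Cdkn2c had -0.030 with the block and without diet replicate 0. On leaving out 1 library, Ccnd2 ranged from -0.33 to 0.16, Ccnd3 from -0.47 to 0.12, Cdkn1b from -0.32 to 0.12 and Cdkn2c from -0.030 to 0.25. Scaling choices reversed none of the 8 genes. Among the genes whose fragments could be read, depth limits Ccne2, Cdkn2c and Gadd45a most, with at most 16 in any library, and Gadd45b had no readable fragments.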

Other observations

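The ratio of Cdkn1a to Ccnd1, an inhibitor against the cyclin that works opposite to it, was formed within each library after the values were seen. Per length it was 1.17, 0.633 and 1.12 in diet replicates 0, 1 and 2, and 4.22 and 31.9 in dabigatran replicates 1 and 2. The log2 ratio was higher by 3.63 with dabigatran, in 2 of 2 libraries. The exact permutation test over libraries gave p = 0.2 (two-sided, by doubling the smaller tail), the smallest value that such doubling allows with 10 splits. The ratio of Cdkn1b to Ccnd3 lay between 0.339 and 0.598 in all 5 libraries, with 0.491 and 0.537 in the dabigatran libraries.

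The ratio of Gadd45g to Gadd45a was 2.66, 12.2 and 2.40 in the diet libraries and 16.6 and 21.8 with dabigatran. Diet replicate 1 lay nearer to the dabigatran libraries than to diet replicates 0 and 2 (exact permutation test over libraries, two-sided p = 0.2). The 3 ratios were not adjusted for one another.

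Col3a1 is a collagen gene among the stellate cell markers. It had 6.26, 3.48 and 6.32 FPKM on the diet alone and 1.29 and 0.953 with dabigatran (limma adjusted p = 0.0674). Of the 7 tested stellate cell markers, 5 had a lower and 2 a higher mean on the log2 scale with dabigatran. Reln, one of the 2, lay above every diet library, with 4.15, 4.06 and 4.65 FPKM against 4.68 and 6.09. The endothelial marker Lyve1 had 10.4, 9.07 and 7.31 FPKM against 18.6 and 23.2 (limma adjusted p = 0.0689). Clec4g, another endothelial marker, had the opposite direction, with 50.4, 53.6 and 53.3 FPKM against 37.2 and 25.4 (limma adjusted p = 0.139). These genes were chosen after their values were seen.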
